A study of Mus musculus with 30 samples.

Results

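The 10 genes described here encode the 5 subunits of the transcription factor NF-kB (Nfkb1, Nfkb2, Rel, Rela and Relb) and 5 proteins that restrain or modulate it (Nfkbia, Nfkbib, Nfkbie, Nfkbiz and Tnfaip3). The latter 5 are grouped below as inhibitors. This is a label only for Nfkbiz, whose product works with NF-kB at a subset of its targets. The 10 genes were taken by gene symbol from a table of 25611 genes, where each had 1 row. All 10 passed the filter on low counts that left 14808 genes to test. The RNA came from dendritic cells grown from mouse bone marrow with FLT3 ligand (FLT3L) at 200 ng/ml, a culture that yields plasmacytoid and conventional dendritic cells, used on days 6 to 7. The cells were wild type (WT) or carried a knockout of Rubcn (KO), whose product, Rubicon, restrains autophagy and is needed for a form of phagocytosis that uses part of the autophagy machinery. Both genotypes were left untreated, or received ovalbumin (OVA), a soluble protein antigen, or apoptotic Jurkat cells, which come from a human leukaemia of T cells. Exposure lasted 30 min or 4 h. This gives 10 groups of 3 libraries, 30 in all. The labels give no mouse age, no strain and no OVA or Jurkat dose, and do not say whether the 3 libraries of a group came from separate mice or cultures, so the p-values measure the spread between these libraries, which may be technical.

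NF-kB subunits pair into dimers that bind the same family of DNA sites. In resting cells the inhibitors IkB alpha, beta and epsilon (Nfkbia, Nfkbib and Nfkbie) hold most dimers in the cytoplasm, and their destruction after a stimulus frees the dimers to enter the nucleus. Among the genes then switched on are several of the inhibitors and subunits themselves, so that the pathway limits and rebuilds itself. In dendritic cells it drives maturation, cytokine production and co-stimulation. On mm10 the subunit genes lie apart, Nfkb1 at chr3:135584655-135691547, Nfkb2 at chr19:46304737-46312090, Rel at chr11:23741729-23770970, Rela at chr19:5637490-5648130 and Relb at chr7:19606222-19629438. The others are Nfkbia at chr12:55489409-55492647, Nfkbib at chr7:28758251-28766644, Nfkbie at chr17:45555700-45563168, Nfkbiz at chr16:55811377-55838641 and Tnfaip3 at chr10:19000910-19015410. The gene spans of Nfkbib and Ccer2 share 714 bases and those of Nfkb2 and Psd 6 bases, each on the opposite strand. Whether their exons overlap was not computed, and the sources used here do not say whether counting used strand.

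The DNA just before a transcript start is where NF-kB binds at several of these genes, so these stretches are shown for the 5 genes with at least 1 match to the consensus NF-kB site of 10 bases, searched on both strands. Windows were the 250 bases before each RefSeq transcript start on GRCm38.p6. Of the 10 genes, 7 were in the table used, and Nfkb1, Relb and Nfkbiz were not. A match lay in at least 1 window of 5 of these 7 genes, Nfkb2, Rel, Nfkbia, Nfkbie and Tnfaip3, and in none for Rela and Nfkbib. The site searched was GGGRNNYYCC, where R is A or G, Y is C or T and N is any base. Counted by window, 7 of the 10 windows of these genes held a match, several of them of Nfkb2. Of all 32851 windows in the table, 7.25% held a match. Each window below reads 5′ to 3′ in the direction of its gene, and capitals mark the matches, some of which overlap. They lie at chr12:55492648-55492897 (minus strand) for Nfkbia, chr10:19015411-19015660 (minus) for Tnfaip3, chr17:45555450-45555699 (plus) for Nfkbie, chr19:46304487-46304736 (plus) for Nfkb2 and chr11:23770970-23771219 (minus) for Rel.
Nfkbia: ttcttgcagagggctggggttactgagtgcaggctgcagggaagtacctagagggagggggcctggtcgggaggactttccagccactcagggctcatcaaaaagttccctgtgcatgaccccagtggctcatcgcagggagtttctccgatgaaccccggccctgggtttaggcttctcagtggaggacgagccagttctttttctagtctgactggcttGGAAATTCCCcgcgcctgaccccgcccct
Tnfaip3: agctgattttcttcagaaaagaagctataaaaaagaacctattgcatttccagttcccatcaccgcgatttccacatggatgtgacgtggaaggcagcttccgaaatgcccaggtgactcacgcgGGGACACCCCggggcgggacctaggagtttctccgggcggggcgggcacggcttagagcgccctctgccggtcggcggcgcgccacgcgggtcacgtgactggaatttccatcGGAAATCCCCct
Nfkbie: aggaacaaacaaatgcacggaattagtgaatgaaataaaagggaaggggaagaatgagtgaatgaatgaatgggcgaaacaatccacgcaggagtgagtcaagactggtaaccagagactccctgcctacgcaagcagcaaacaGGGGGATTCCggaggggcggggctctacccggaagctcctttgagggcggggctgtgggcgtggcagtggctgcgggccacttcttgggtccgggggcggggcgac
Nfkb2: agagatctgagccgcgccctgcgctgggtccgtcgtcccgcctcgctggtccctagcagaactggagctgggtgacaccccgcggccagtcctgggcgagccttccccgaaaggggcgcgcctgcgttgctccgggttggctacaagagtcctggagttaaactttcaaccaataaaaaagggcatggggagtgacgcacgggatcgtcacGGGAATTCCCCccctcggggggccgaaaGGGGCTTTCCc
Rel: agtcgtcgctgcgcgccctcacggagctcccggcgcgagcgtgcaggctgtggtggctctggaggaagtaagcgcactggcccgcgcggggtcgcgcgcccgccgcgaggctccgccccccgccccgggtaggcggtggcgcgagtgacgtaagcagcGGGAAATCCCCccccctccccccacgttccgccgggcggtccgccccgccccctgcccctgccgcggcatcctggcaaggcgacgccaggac

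In this orientation the Nfkbia match began 29 bases before the start, those of Tnfaip3 125 and 12 bases before it, and that of Nfkbie 106 bases before it. The Nfkb2 matches began at 39, 38 and 11 bases before the start and those of Rel at 92 and 91, so each of these 2 genes had a pair that overlapped in all but 1 base. A match is a description of the letters, not a measured binding site. Nfkb2 had 2 further windows with 1 match each, and the second window of Tnfaip3 had none.

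Library totals ran from 9.73 M to 51.6 M counts (median 44.9 M), and the shallowest was replicate 3 of KO cells given OVA for 30 min. Levels are given as CPM, a gene's counts per M counts of library size, with sizes scaled by TMM, a method that aligns the bulk of genes. The gene counts of the members ran from 384 (Nfkbib) to 44973 (Nfkbia) in a library. Rubcn counts in untreated KO cells stood at 73.6% of WT (log2 -0.44, FDR 1.69e-07) and were lower in KO in all 5 conditions, and the labels do not say which part of the gene was deleted. The dendritic cell markers Flt3, Itgax, Zbtb46 and Cd74 were present in every library, with medians of 543, 465, 81.7 and 10009.5 CPM. Markers of basophils and mast cells summed to 17.8 to 33.3 CPM in the 15 WT libraries and 50.5 to 100.002 CPM in the 15 KO libraries, with all 5 markers above 0 in each group. Stromal markers summed to 485 to 894 CPM in WT and 686 to 1215 CPM in KO. The 5 markers of plasmacytoid dendritic cells, a main cell type of this culture and none at 0, summed to 2094 to 3410 CPM in WT and 1597 to 2629 CPM in KO, and in each of the 5 conditions every KO library was below every WT library. Those of type 1 conventional dendritic cells summed to 2267 to 2629 CPM in WT and 1988 to 2459 CPM in KO, and those of neutrophils to 90.8 to 139 CPM and 76.6 to 107 CPM. Irf8 alone gave most of the type 1 sum, with a median of 2085 CPM against at most 145 CPM (Clec9a) for the other type 1 markers. The markers of type 2 conventional dendritic cells summed to 846 to 1652 CPM in WT and 993 to 1769 CPM in KO. For type 2, every KO library was above every WT library in all conditions but 30 min of Jurkat cells. Markers of monocytes and macrophages summed to 634 to 1195 CPM in WT and 581 to 1131 CPM in KO. This sum moved with treatment, from a mean of 654 CPM in untreated WT cells to 933 CPM after 4 h of OVA. Its marker Cd14 ran from 25.9 to 216 CPM over the libraries. These sums are thus not plain amounts of a cell type. The part of these cells in the KO differences below was not tested. In bulk RNA, fewer cells of a type and less RNA per cell cannot be told apart.

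In untreated WT cells the gene with the most RNA per length was Nfkb1, whose precursor protein is cut to a subunit that lacks an activating domain of its own, at 127 ± 5.36 CPM per kb of exon (mean ± SD, n = 3). Nfkbia followed at 58.6 ± 2.28 and Rela, the main activating subunit, at 43.6 ± 3.66 CPM per kb. Relb (32.9 ± 1.004), Nfkbie (31.6 ± 1.35) and Nfkb2 (30.9 ± 1.86) lay close together, with Nfkbib below them at 19.4 ± 0.228. The lowest were Tnfaip3 at 12.6 ± 0.135, Nfkbiz at 8.90 ± 0.431 and Rel at 6.97 ± 0.814 CPM per kb. Lengths were the union of exons in GENCODE vM21, since the sources used here do not give the authors' annotation. After 4 h with Jurkat cells Nfkbia led in WT cells, at 723 ± 16.9 CPM per kb, and Nfkb1 stood at 272 ± 16.9.

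**Figure D1:**
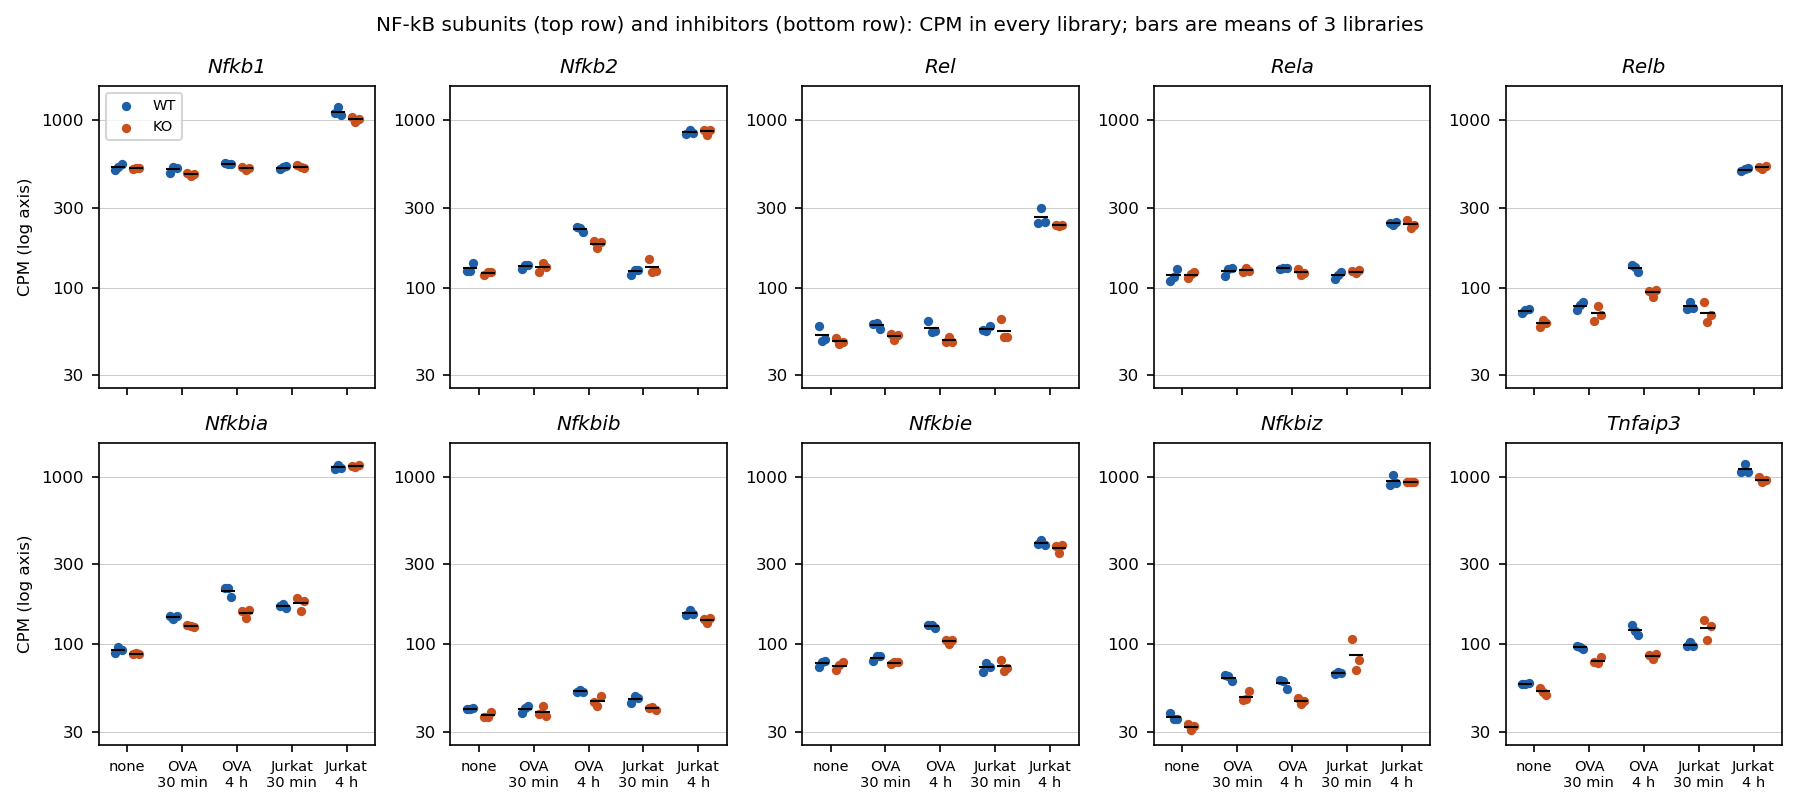
CPM of each gene in every library on a log axis, subunits in the top row and inhibitors in the bottom row, with WT in blue, KO in orange and a bar at each group mean of 3 libraries. Every gene is highest after 4 h with Jurkat cells, Nfkbia, Nfkbiz and Tnfaip3 are already up at 30 min, and Nfkb1, Rel and Rela stay nearly level until then.

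The first question was which of these genes responded at 30 min. 3 of the genes grouped as inhibitors did, Nfkbia, Nfkbiz and Tnfaip3, after either treatment and in both genotypes, and they rose by 1.46- to 2.68-fold. A gene was called at an FDR under 0.05, the Benjamini-Hochberg adjusted p of edgeR's quasi-likelihood test over all genes. After OVA these were 3 of 10 members in WT and 3 of 10 in KO, against 10.7% and 3.77% of all genes tested, 5.51% and 1.88% as higher. After Jurkat cells 4 of 10 were called in each, against 28.7% and 17.0% of all genes, 14.2% and 8.72% as higher. The remaining call was Nfkbib in WT and Relb in KO. The 4 calls in WT Jurkat cells are not far above that background, and the sizes below carry more than the count.

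Nfkbia, which encodes the fast-turning inhibitor IkB alpha, was at 88.8, 96.0 and 92.8 CPM in the untreated WT libraries. These rose to 147, 141 and 148 CPM after OVA and to 169.6, 174 and 165 CPM after Jurkat cells. The 3 groups did not overlap, and Jurkat libraries were the highest (log2 0.65, SE 0.0522, FDR 2.02e-09 for OVA, log2 0.87, SE 0.0522, FDR 4.51e-13 for Jurkat cells). In KO cells it went from 87.5, 88.6 and 87.4 CPM to 131, 128 and 126 CPM and 189.9, 159 and 182 CPM. These too were apart from the untreated libraries (log2 0.55 and 1.01).

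Nfkbiz encodes IkB zeta, a nuclear protein that works with NF-kB at a subset of its targets. The untreated WT libraries held 38.9, 35.6 and 35.9 CPM. With OVA for 30 min they held 65.4, 64.2 and 60.1 CPM and with Jurkat cells 66.3, 68.0 and 67.7 CPM, both above untreated (log2 0.78, SE 0.0912, FDR 1.18e-06 and log2 0.87, SE 0.0911, FDR 2.95e-08). In KO cells the level was 33.2, 30.8 and 32.3 CPM without treatment, 46.8, 47.0 and 52.3 CPM after OVA and 108, 69.7 and 80.6 CPM after Jurkat cells. The KO Jurkat libraries were spread more widely than any other group at 30 min, with replicate 1 on top, and all 3 lay above the untreated ones (log2 1.42, SE 0.0917, FDR 2.4e-12).

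Tnfaip3 encodes a ubiquitin-editing enzyme that ends signalling upstream of NF-kB. Its WT levels were 57.6, 57.8 and 58.8 CPM untreated, 98.2, 96.8 and 93.5 CPM after OVA and 97.3, 103 and 97.2 CPM after Jurkat cells. The WT OVA and Jurkat libraries overlapped each other and were both above untreated (log2 0.73, SE 0.0655, FDR 1e-08 and log2 0.77, SE 0.0655, FDR 5.37e-10). In KO they were 55.0, 52.1 and 50.1 CPM, 78.4, 77.4 and 83.7 CPM and 139, 107 and 129 CPM in the same order, with no overlap between the 3 groups (log2 0.60 and 1.25).

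Among the other 2 IkB genes, Nfkbib rose after Jurkat cells in WT by a small amount, from 41.3 ± 0.484 CPM to 47.0 ± 2.09 CPM (mean ± SD, n = 3; log2 0.19, SE 0.0490, FDR 0.00470). In KO its value was log2 0.14 (FDR 0.0564). Relb, the activating partner in the alternative NF-kB pathway, was called in KO Jurkat cells (log2 0.22, SE 0.0729, FDR 0.0400), although its libraries overlapped the untreated ones. Without replicate 1 of that group it was not (log2 0.10, FDR 0.382), and over all alternatives its FDR ran from 0.00574 to 0.382. The other subunits moved by log2 -0.12 (Nfkb1, KO, OVA) to 0.21 (Rel, KO, Jurkat cells) at 30 min, with no call.

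After 4 h with OVA the response had broadened to the precursor gene Nfkb2 and to all 5 inhibitors, and it included Relb. These 7 genes rose in both genotypes, against 23.5% of all genes called in WT (11.9% higher) and 11.6% in KO (5.94% higher). The members' median was log2 0.70 in WT and 0.50 in KO, while that of all genes was close to 0 in both. In WT the rises spanned 1.26-fold (Nfkbib) to 2.26-fold (Nfkbia), and in KO 1.21- to 1.75-fold for the same 2 genes. Nfkb1, Rel and Rela were not called: their values were log2 0.07, 0.14 and 0.13 in WT.

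Nfkb2, whose precursor holds Relb in the cytoplasm until it is processed, was at 126, 126 and 139.7 CPM in untreated WT libraries and 230.5, 228 and 215 CPM after 4 h of OVA. The groups were far apart (log2 0.78, SE 0.0586, FDR 3.64e-11). In KO it went from 119, 123 and 123 CPM to 189.8, 172 and 187 CPM (log2 0.59, SE 0.0586, FDR 3.24e-08). Relb moved alongside it. Its WT libraries went from 70.2, 73.9 and 74.1 CPM to 136, 134 and 124 CPM (log2 0.85, SE 0.0719, FDR 4.84e-10). Its KO libraries went from 57.8, 64.1 and 61.4 CPM to 96.0, 87.8 and 96.9 CPM (log2 0.62, SE 0.0726, FDR 6.62e-07), above their own untreated level and below every WT library given OVA for 4 h.

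Nfkbia was the most changed of the inhibitors, with 218, 217 and 192 CPM in WT cells (log2 1.17, SE 0.0524, FDR 4.8e-16) and 157, 144 and 159.8 CPM in KO (log2 0.81, SE 0.0523, FDR 5.51e-12). Tnfaip3 reached 129.6, 121 and 113 CPM in WT and 86.7, 81.5 and 87.0 CPM in KO (log2 1.06 and 0.70). Nfkbie, which encodes IkB epsilon, a slower inhibitor that chiefly holds Rel and Rela dimers, was called at 4 h and not at 30 min. It went from 77.1 ± 3.28 CPM to 128 ± 3.43 CPM in WT and from 74.2 ± 4.13 CPM to 104 ± 3.49 CPM in KO (log2 0.74 and 0.49). Nfkbiz did not differ detectably at 4 h from its level at 30 min of OVA with the genotypes averaged (log2 -0.10, FDR 0.270), whereas higher levels at 4 h were called for Nfkb2 (log2 0.61), Relb (0.58), Nfkbie (0.53), Nfkbia (0.39), Nfkbib (0.27), Tnfaip3 (0.22) and Nfkb1 (0.11). These are 7 of 10 members, against 34.2% of all genes called between the 2 times (17.2% higher).

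After 4 h with apoptotic Jurkat cells all 10 genes rose in both genotypes. At this time 79.5% of all genes were called in WT and 78.5% in KO, 38.9% and 37.5% of all genes as higher, so a call alone is common here. The sizes were large: the members' median was log2 2.55 in WT and 2.58 in KO, against -0.02 and -0.03 over all genes. The median of the inhibitors was log2 3.62 in WT and that of the subunits 2.33. With library totals in place of TMM the all-gene median became -0.42 (WT) and -0.37 (KO), while the members still rose by log2 0.62 to 4.28 and 0.63 to 4.52, all called. The share of higher calls among all genes called then went from 48.9% to 28.96% in WT and from 47.7% to 29.2% in KO.

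Of the subunits, Relb rose most in KO, from 61.1 ± 3.16 CPM to 522 ± 8.96 CPM (8.54-fold, SE of log2 0.0759), and by 6.97-fold in WT. Nfkb2 went from 131 ± 7.86 CPM to 849.9 ± 24.3 CPM in WT (6.51-fold) and rose by 7.03-fold in KO. Rel, a subunit found mainly in blood cells, had shown no call before this time. It was at 59.1, 48.2 and 49.0 CPM untreated and 243, 298 and 247 CPM here (log2 2.33, SE 0.0837, FDR 1.09e-20), with WT replicate 2 above the other two. Nfkb1 and Rela rose least, from 524 ± 22.1 CPM to 1123 ± 69.8 CPM (2.14-fold) and from 118 ± 9.93 CPM to 241 ± 5.65 CPM (2.04-fold) in WT.

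Of the genes grouped as inhibitors, Nfkbiz rose most. Its WT libraries went from 38.9, 35.6 and 35.9 CPM to 891, 1031 and 917 CPM (25.7-fold, log2 4.68, SE 0.1001, FDR 7.53e-26), and its KO libraries reached 925, 926 and 935 CPM (28.9-fold). Tnfaip3 reached 1076, 1185 and 1061 CPM in WT (19.1-fold) and 1001, 925 and 953 CPM in KO (18.3-fold). Nfkbia came next at 12.3-fold in WT and 13.2-fold in KO, reaching 1141 ± 26.7 CPM and 1159.7 ± 12.2 CPM. Nfkbie rose 5.24-fold and Nfkbib 3.71-fold in WT. No treated library of any member overlapped the untreated ones of its genotype, which held for 79.4% of all genes in WT and 79.0% in KO.

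Jurkat cells are themselves of the T lineage, and the sources used here do not say how human reads were handled. The 15 T-lineage markers, none at 0 in any group and 14 of them tested, summed to 71.5 to 95.5 CPM in the 18 libraries without Jurkat cells. They summed to 99.7 to 116 CPM in the 6 libraries with Jurkat cells for 30 min and to 113 to 164 CPM in the 6 with Jurkat cells for 4 h. The markers did not move as one: Lck reached 48.6 CPM from an untreated median of 3.06 and Zap70 39.7 CPM from 0.572, while Cd3d, a defining T-cell gene, stayed at or below 0.184 CPM, and the lowest library of Cd28 was at 19.5 CPM against an untreated median of 50.8. The part of Jurkat RNA in the values of these genes was not tested.

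**Figure D2:**
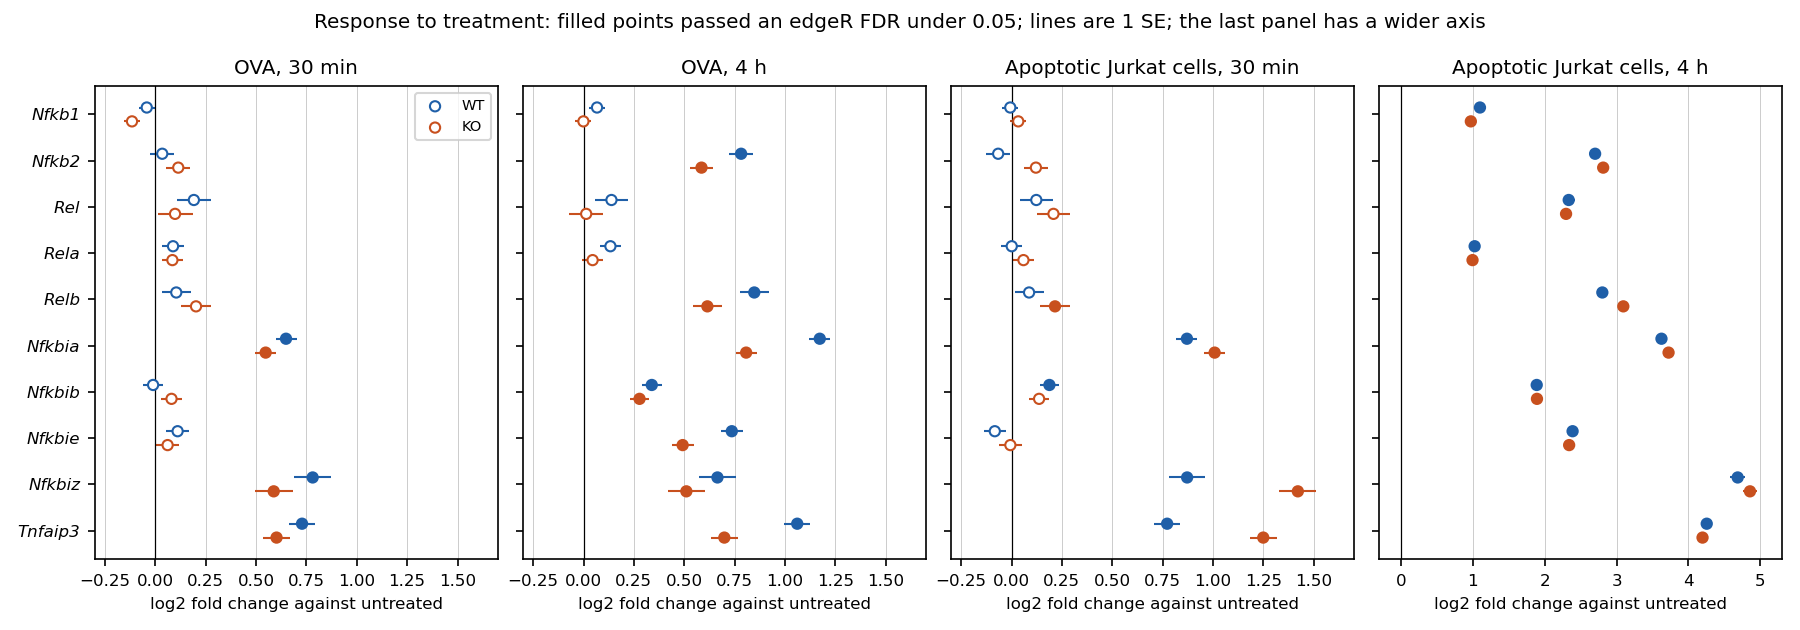
Log2 fold change of each gene against untreated cells of the same genotype (x axis; 1 panel per treatment and time, the last with a wider axis), WT in blue and KO in orange, filled where the edgeR FDR was under 0.05, with lines of 1 SE. Only Nfkbia, Nfkbiz and Tnfaip3 are filled in both genotypes at 30 min, 7 genes at 4 h of OVA and all 10 at 4 h of Jurkat cells.

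The next comparison set Jurkat cells directly against OVA at the same time, with the genotypes averaged. At 30 min Nfkbiz (log2 0.46, SE 0.0641), Tnfaip3 (0.35, SE 0.0461) and Nfkbia (0.34, SE 0.0368) were higher with Jurkat cells, as were Nfkbib (0.13) and Nfkb1 (0.09) by less. Nfkbie was lower (log2 -0.13, FDR 0.0139). These are 6 of 10 members, against 29.9% of all genes. At 4 h all 10 were higher with Jurkat cells, against 82.6% of all genes called and 39.4% called as higher. The differences ran from 1.90-fold (Rela) to 18.1-fold (Nfkbiz), with Tnfaip3 at 10.2- and Nfkbia at 6.42-fold. Between 30 min and 4 h of Jurkat cells all 10 rose too, against 83.9% of all genes called (40.2% higher), by 1.98-fold (Rela) to 12.3-fold (Nfkbiz).

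The study's genotype question is how these genes differed between KO and WT cells in the same condition. The clearest difference was after 4 h of OVA, where 7 of 10 were lower in KO, against 12.6% of all genes called and 6.35% called as lower. These were Nfkb2, Relb and all 5 inhibitors, the 7 genes called as raised by OVA, and the fitted ratio of KO to WT ran from 0.702 (Tnfaip3) to 0.873 (Nfkbib). The members' median was log2 -0.30 and that of all genes was close to 0. In 9 of 10 members, Rela being the exception, the KO libraries all lay below the WT ones, which held for 16.8% of all genes. Scaling by library totals kept all 7 calls, while the share of higher calls among all genes called went from 49.5% to 64.5%. In the same libraries the markers of plasmacytoid dendritic cells summed to 2121 to 2131 CPM in WT and 1809 to 1885 CPM in KO. Those of type 2 conventional dendritic cells summed to 1563 to 1593 CPM in WT and 1681 to 1769 CPM in KO. Those of monocytes and macrophages summed to 868 to 988 CPM in WT and 831 to 865 CPM in KO. The part of these cells in the differences was not tested.

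Tnfaip3 showed the largest of these, with 129.6, 121 and 113 CPM in WT against 86.7, 81.5 and 87.0 CPM in KO (log2 -0.51, SE 0.0645, FDR 1.97e-06, 95% interval -0.64 to -0.38). Relb followed (log2 -0.48, interval -0.63 to -0.34, FDR 1.62e-05), then Nfkbia (log2 -0.44, interval -0.55 to -0.34, FDR 5.7e-07). The gap was smaller for Nfkbiz (log2 -0.35, FDR 0.00843), Nfkb2 (-0.30, FDR 0.000622), Nfkbie (-0.30, FDR 0.000275) and Nfkbib (-0.20, FDR 0.00643). Nfkbib lost its call without KO OVA 4 h replicate 2 (FDR 0.00124 to 0.0690 over all alternatives) and Nfkbiz without WT OVA 4 h replicate 1 (FDR 0.000319 to 0.0508). Rel was at 63.1, 54.2 and 54.7 CPM in WT and 47.3, 50.5 and 47.1 CPM in KO and missed the threshold (log2 -0.25, FDR 0.0505). DESeq2 called it, as did 3 further fits of all libraries and the fit of only the 2 groups (FDR 0.00812 to 0.304 over all alternatives). Nfkb1 and Rela had intervals of -0.17 to -0.01 and -0.18 to 0.03.

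At 30 min of OVA the 3 early genes were lower in KO, against 12.4% of all genes called (6.13% lower). They were Nfkbiz (log2 -0.39, SE 0.0929, FDR 0.00530), Tnfaip3 (log2 -0.27, SE 0.0662, FDR 0.00594) and Nfkbia (log2 -0.18, SE 0.0525, FDR 0.0256). For each, the highest KO library was below the lowest WT library, which held for 14.9% of all genes. Nfkbia was the least firm: leaving out KO replicate 2 or 3, or WT replicate 1 or 3, ended its call, and its FDR ran from 0.00605 to 0.105 over all alternatives. Tnfaip3 lost its call without KO replicate 2 (FDR 0.000581 to 0.0534 over all alternatives). Under total scaling the share of higher calls among all genes called went from 50.5% to 63.8%.

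In untreated cells only Relb was called, as lower in KO, against 9.97% of all genes called (3.97% lower). Its libraries were at 70.2, 73.9 and 74.1 CPM in WT and 57.8, 64.1 and 61.4 CPM in KO (log2 -0.25, SE 0.0728, FDR 0.0248). They did not overlap, but the call was lost when KO replicate 1 or 3 or WT replicate 2 or 3 was left out (FDR 0.00553 to 0.132 over all alternatives). Of the others, 8 had a value below 0, and Rela was at 0.01 (95% interval -0.09 to 0.12). Intervals were also below 0 for Nfkbiz (log2 -0.20, -0.39 to -0.01), Tnfaip3 (-0.15, -0.28 to -0.01) and Nfkbib (-0.14, -0.24 to -0.03). An unadjusted edgeR p under 0.05 was found for 4 members, against 3211 of the 14808 genes tested. In 6 of 10 members, Relb among them, the KO libraries all lay below the WT ones. The share of all genes for this is not given here. Lower KO values were thus not confined to treated cells.

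With Jurkat cells for 30 min the direction was the other way for the 2 genes that had moved most. Nfkbiz and Tnfaip3 were higher in KO and Nfkbib was lower, 3 of 10 members against 9.25% of all genes (5.58% higher and 3.67% lower). Tnfaip3 was at 97.3, 103 and 97.2 CPM in WT and 139, 107 and 129 CPM in KO (log2 0.33, SE 0.0642, FDR 0.00123, 95% interval 0.20 to 0.46). Nfkbiz was at 66.3, 68.0 and 67.7 CPM in WT and 108, 69.7 and 80.6 CPM in KO (log2 0.35, SE 0.0883, FDR 0.0105). Every KO library was above every WT library for both genes, which held for 13.7% of all genes, but for Nfkbiz the gap rested on KO replicate 1: without it the value was log2 0.16, FDR 0.139. A fit of only the 2 groups gave log2 0.36, FDR 0.120, and over all alternatives the FDR ran from 0.000215 to 0.139. Nfkbib was lower in KO (log2 -0.19, SE 0.0490, FDR 0.0150), a call lost without KO replicate 3 or WT replicate 2 or 3. Nfkbia did not differ detectably (log2 0.06, interval -0.04 to 0.17). Relb was at log2 -0.12 (FDR 0.330), and without KO replicate 1 it was called as lower in KO (FDR 0.0291 to 0.835 over all alternatives). The T-lineage markers summed to 113 to 116 CPM in these WT libraries and 99.7 to 108 CPM in the KO ones.

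After 4 h with Jurkat cells no difference between genotypes was called for most members. Nfkb2, Relb, Nfkbia and Nfkbiz had 95% intervals of -0.11 to 0.13, -0.10 to 0.18, -0.08 to 0.13 and -0.20 to 0.15 on the log2 scale. Rela was at log2 -0.02 (-0.12 to 0.09). Rel (log2 -0.16, -0.32 to 0.002) and Nfkbie (log2 -0.10, -0.21 to 0.006) were not called, with intervals mostly below 0. Rel was at 232 to 237 CPM in KO and 243 to 298 CPM in WT. Tnfaip3 (log2 -0.21, SE 0.0623, FDR 0.0163), Nfkb1 (log2 -0.15, SE 0.0395, FDR 0.00682) and Nfkbib (log2 -0.13, SE 0.0459, FDR 0.0378) were called as lower in KO, 3 of 10 against 22.9% of all genes (13.5% lower), a share near the background. None of the 3 calls held when libraries were scaled by their totals (log2 -0.12, -0.07 and -0.05), nor when WT replicate 2 or KO replicate 2 was left out. Total scaling raised the share of higher calls among all called genes from 40.9% to 74.8% in this comparison. T-lineage markers summed to 134 to 164 CPM in these WT libraries and 113 to 135 CPM in the KO ones.

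**Figure D3:**
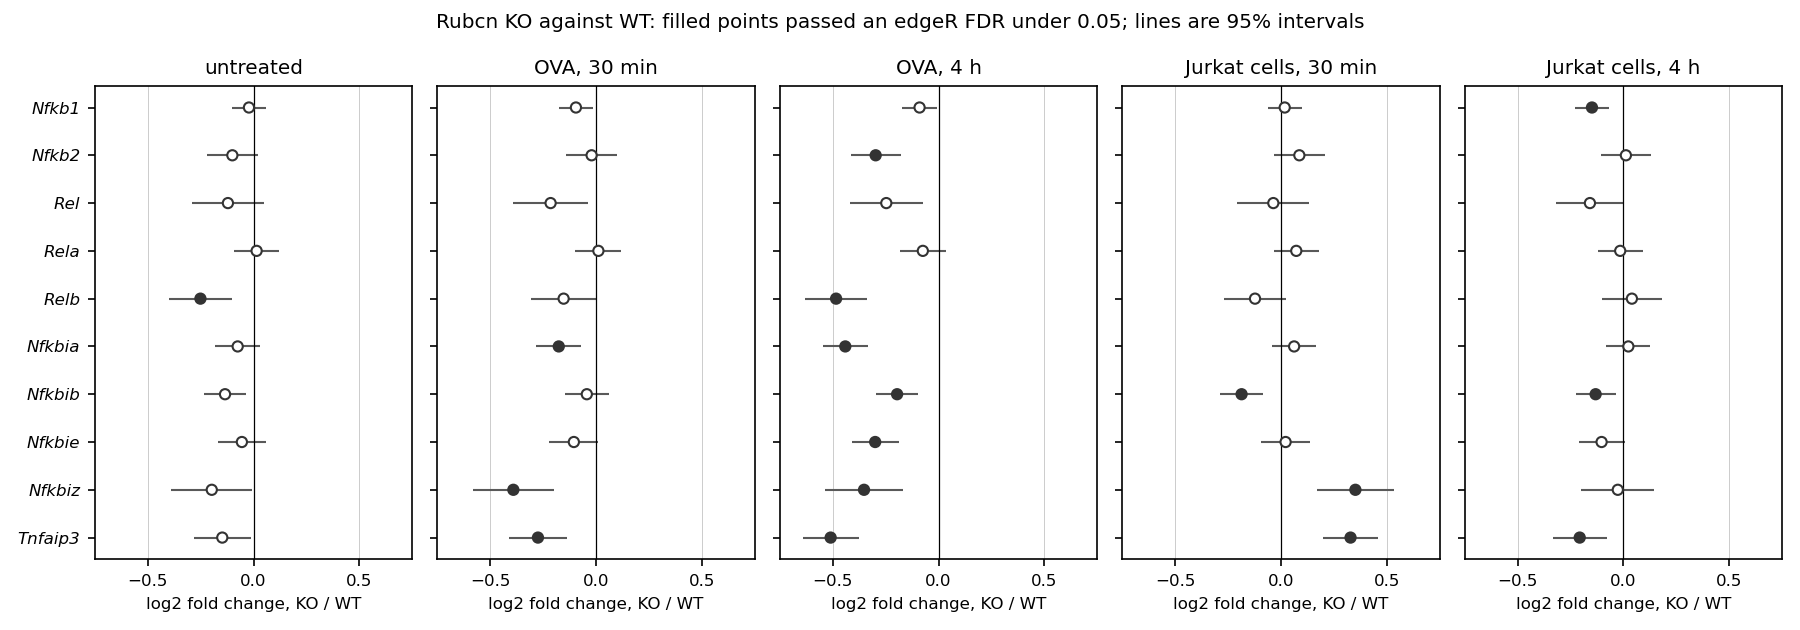
Log2 fold change of KO over WT (x axis) for each gene in the 5 conditions, with 95% intervals, filled where the edgeR FDR was under 0.05. The filled points lie left of 0 with OVA, and Nfkbiz and Tnfaip3 lie right of 0 with Jurkat cells for 30 min.

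An interaction term for each treatment asked if KO and WT cells responded by different amounts. No member was called in any of the 4, where edgeR called 0% of all genes for OVA at 30 min, 0.0405% for OVA at 4 h, 0.00675% for Jurkat cells at 30 min and 4.26% at 4 h. Members with an unadjusted p under 0.05 numbered 0, 5, 3 and 2 in that order, against 795, 1098, 1098 and 2823 of the 14808 genes tested. The 2 at 4 h of Jurkat cells are near that background. DESeq2 called 0, 1, 2 and 0 members, and its counts over all genes are not given here. For OVA at 4 h Nfkbia came closest, with a difference of log2 -0.37 (SE 0.0734, FDR 0.0556), then Tnfaip3 (difference -0.36, FDR 0.199). Nfkbia was called without WT OVA 4 h replicate 3 (FDR 0.00321 to 0.254 over all alternatives). For Jurkat cells at 30 min the differences were 0.55 for Nfkbiz (FDR 0.265) and 0.48 for Tnfaip3 (FDR 0.0697), and both were called without KO Jurkat 30 min replicate 2 (FDR 0.00211 to 0.738 and 0.000356 to 0.493 over all alternatives). At 4 h of Jurkat cells Relb had 0.29 (FDR 0.0949). Set directly against each other, in contrasts added after seeing the data, the KO to WT ratios with Jurkat cells and with OVA differed for 2 of 10 members at 30 min (Nfkbiz and Tnfaip3), against 0.0743% of all genes. At 4 h they differed for 3 (Nfkb2, Relb and Nfkbia), against 2.53%. Between 30 min and 4 h of Jurkat cells the ratio fell for 2 (Nfkbiz and Tnfaip3), against 8.83% of all genes. The Nfkbiz call is weak: of its 20 alternatives 9 kept it, while Tnfaip3 was called in all 20.

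The wider pathway was followed through 50 genes of NF-kB signalling and its regulators, all tested. OVA for 30 min gave 10 higher and 4 lower in WT and 5 higher and 0 lower in KO, and OVA for 4 h gave 16 higher and 5 lower in WT and 12 higher and 1 lower in KO. Jurkat cells for 30 min gave 1 higher and 10 lower in WT and 9 higher and 6 lower in KO. For 4 h the counts were 30 higher and 14 lower in WT and 29 higher and 13 lower in KO. Of all genes, 30 min of OVA gave calls for 10.7% (WT) and 3.77% (KO), and 4 h for 23.5% (WT) and 11.6% (KO). Jurkat cells gave 28.7% and 17.0% at 30 min and 79.5% and 78.5% at 4 h, with all-gene medians close to 0. The 11 calls of 50 in WT at 30 min of Jurkat cells are thus below the share of all genes. The list's median stayed small, log2 0.03 with OVA and 0.31 with Jurkat cells in WT at 4 h. Under total scaling the 4 h Jurkat counts became 22 higher and 25 lower in WT and 22 and 26 in KO. Small counts moved with single libraries: without WT OVA 30 min replicate 2 the 10 higher became 5, and without its replicate 1 the 4 lower became 2. The 5 higher in KO became 2 or 3 without any KO library given OVA for 30 min or without KO untreated replicate 1 or 2. The 5 lower at 4 h of OVA in WT became 3 without WT OVA 4 h replicate 3 or untreated replicate 3, and 1 without untreated replicate 2. The 1 lower in KO became 0 without KO OVA 4 h replicate 1 or 2 or untreated replicate 1. For Jurkat cells at 30 min the 9 higher in KO became 5 without KO untreated replicate 2, and the 1 higher in WT became 2 or 3 without WT Jurkat replicate 1 or 3 or untreated replicate 1 or 3.

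With OVA for 4 h, Ikbke, an IkB kinase relative, went from 18.4 ± 1.12 to 61.2 ± 4.69 CPM in WT (log2 1.73, SE 0.0705, FDR 1.05e-16). Tnip3, a partner of the Tnfaip3 protein, went from 38.2 ± 1.44 to 91.5 ± 11.8 CPM and Traf1, a signalling adaptor, from 51.6 ± 1.964 to 107 ± 7.44 CPM. With Jurkat cells for 4 h Traf1 (51.6 ± 1.964 to 1081 ± 56.7 CPM), Tnip3 (38.2 ± 1.44 to 490.2 ± 52.5 CPM) and the atypical IkB protein gene Bcl3 (52.3 ± 4.21 to 424 ± 3.28 CPM) rose most in WT. Card9, an adaptor of fungal receptors, fell from 73.7 ± 3.13 to 14.8 ± 0.732 CPM and Pdlim2, whose product promotes the breakdown of nuclear Rela, from 37.8 ± 0.846 to 9.64 ± 0.545 CPM. Between genotypes the list gave 0 higher and 15 lower in KO at 4 h of OVA, where Traf1 (log2 -0.72), Map3k8 (-0.46) and Tnip3 (-0.44) were furthest down. The counts were 0 higher and 7 lower untreated, 1 higher and 9 lower at 30 min of OVA, 1 higher and 5 lower at 30 min and 2 higher and 12 lower at 4 h of Jurkat cells. Of all genes, 6.35% were lower at 4 h of OVA, 3.97% untreated, 6.13% at 30 min of OVA, and 3.67% and 13.5% at 30 min and 4 h of Jurkat cells. The 2 higher and 12 lower at 4 h of Jurkat cells became 10 higher and 5 lower under total scaling, and 6 or 7 lower without WT or KO replicate 2. The 9 lower at 30 min of OVA became 3 without KO replicate 2 and 5 without WT replicate 1 or 2. At 30 min of Jurkat cells the 5 lower became 2 or 3 without KO replicate 2 or 3 or WT replicate 2 or 3. The 7 lower in untreated cells became 4 without KO replicate 1.

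Of 30 textbook NF-kB target genes, all tested and none of them among the 10, 14 were higher in WT and 9 in KO at 30 min of OVA and 26 and 17 at 4 h, with 0 lower. With Jurkat cells 15 rose and 1 fell in WT at 30 min, 23 rose in KO, and all 30 rose in both genotypes at 4 h. At 30 min the shares of all genes called as higher were 5.51% in WT and 1.88% in KO with OVA, and 14.2% and 8.72% with Jurkat cells. The list's WT median at 4 h was log2 0.86 with OVA and 4.17 with Jurkat cells, where all genes had medians close to 0 and 11.9% and 38.9% of them were called as higher. Tnf, the cytokine that itself activates NF-kB, went from 10.5 ± 0.931 to 54.1 ± 2.66 CPM at 30 min of OVA and to 95.6 ± 7.07 CPM at 30 min of Jurkat cells. Cxcl2, a neutrophil-attracting chemokine, went from 0.645 ± 0.297 to 391 ± 14.0 CPM and Il6 from 0.244 ± 0.0524 to 142 ± 17.8 CPM at 4 h of Jurkat cells. Over the alternatives other than leaving out a library, the 4 h Jurkat count was 27 to 30.

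The target list was compared between genotypes in the same way. At 4 h of OVA 2 higher and 13 lower genes were called in KO (median log2 -0.31), against 6.35% of all genes lower, with the chemokines Ccl4 (log2 -1.37) and Ccl22 (-0.90) and the co-stimulatory receptor Cd40 (-0.96) furthest down, and Csf1 (0.38) up. At 30 min of Jurkat cells 15 higher and 1 lower were called (median 0.33), against 5.58% of all genes higher, among them Cd40 (log2 1.05), Il12b (1.02) and Ptgs2 (0.95) as higher. That count fell to 7 higher without KO Jurkat 30 min replicate 1 and to 9 without WT Jurkat 30 min replicate 3. It was 6 in a fit of only the 2 groups. The KO libraries were widely spread for Cd40 (38.3 ± 29.8 CPM, mean ± SD), Il12b (49.5 ± 39.4 CPM) and Ptgs2 (16.8 ± 5.63 CPM). Their WT values were tighter, 18.6 ± 2.55, 24.5 ± 6.74 and 8.72 ± 0.438 CPM in that order. These fold changes are thus not a uniform shift of the KO libraries. The counts were 3 higher and 2 lower untreated, 1 higher and 5 lower at 30 min of OVA and 4 higher and 6 lower at 4 h of Jurkat cells. Of all genes, 6.00% were called as higher and 3.97% as lower untreated. At 30 min of OVA 12.4% were called, 6.13% as lower, and at 4 h of Jurkat cells 22.9%, 13.5% as lower. The untreated and 4 h Jurkat counts are not far above these shares. Leaving out any 1 library of the 2 groups turned the 4 higher at 4 h of Jurkat cells into 1 to 3. The 5 lower at 30 min of OVA became 3 without KO replicate 1 or 3 or WT replicate 2 or 3, and the 9 KO genes raised by OVA at 30 min became 5 without KO replicate 2.

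The order of levels across the 10 groups is given as a description. For every member the 2 groups given Jurkat cells for 4 h were the highest, with no overlap with the next group. That next place was held by WT cells given OVA for 4 h for all members but Nfkbiz and Tnfaip3, where it was KO cells given Jurkat cells for 30 min, and Rel, where it was WT cells given OVA for 30 min. The ratio of the highest to the lowest group mean was 2.04 for Rela, 2.36 for Nfkb1, 21.1 for Tnfaip3 and 29.5 for Nfkbiz. Of the 9 pairs of neighbours in that order, 6 did not overlap for Nfkbia, Nfkbiz and Tnfaip3, 4 for Nfkb1, Relb, Nfkbib and Nfkbie, 3 for Nfkb2, 2 for Rel and 1 for Rela. For Rela and Rel no neighbouring pair below the 4 h Jurkat groups was apart. These separations were not counted over all genes, so no background share stands beside them.

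Over the 10 group means of log2 CPM, each pair of members had a Pearson r of 0.939 (Nfkbie and Nfkbiz) to 0.999 (Nfkb2 and Nfkbie), with the 2 groups given Jurkat cells for 4 h far from the rest. Over the other 8 group means the values spread widely: r was 0.988 for Nfkb2 and Nfkbie, 0.951 for Nfkb2 and Relb and 0.969 for Nfkbia and Tnfaip3. It was 0.0289 for Nfkbie and Nfkbiz and -0.00299 for Nfkb1 and Rela. These are descriptions over points that share libraries and controls. By the same measure over 10 group means, the genes outside the set most like Nfkbiz were Zc3h12a, Tnfsf9 and Ifrd1 (r 0.996 to 0.997). Those most like Tnfaip3 were Sdc4, Ccrl2 and Cd83 (0.996 to 0.997), and those most like Nfkbia were Sdc4, Rasgef1b and Maff (0.996 to 0.998).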

How the data were processed

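RNA of 30 libraries was sequenced, and the authors deposited a table of raw counts per gene and library. Per the submitters' processing notes the tools were STAR 2.5, Subread, featureCounts 1.5.0-p1 and DESeq2 with the mm10 build; the sources used here do not give the annotation, strand setting or handling of human reads. The 14808 genes kept by edgeR's filter on low counts were fitted with edgeR 4.0.16 (R 4.3.3, limma 3.58.1) in 1 model of the 10 groups, with TMM scaling, the quasi-likelihood F test and Benjamini-Hochberg adjustment over all genes tested. A gene was called at an FDR under 0.05. The SE is the log2 fold change over the root of F, and CPM values use TMM-scaled library sizes. Comparisons were treatment against untreated within a genotype, KO against WT within a condition, their interactions, and Jurkat cells against OVA and 4 h against 30 min with genotypes averaged. These comparisons share groups.

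The 10 genes and both gene lists were chosen with earlier results of these data known. Of each list, up to 3 genes with the largest rise and 3 with the largest fall among those called, at 5 CPM or more in the higher group, could be named. Alternatives were DESeq2 1.42.0, its size factors, library totals, no filter and a stricter filter (5 CPM in 3 libraries), replicate blocks, only the groups compared, and leaving out each library. The fit was also run on simulated data, with balanced changes in a small set of genes in WT cells given OVA for 4 h. Its outcome is not given here. It does not bear on the 4 h Jurkat comparisons, where most genes were called. Promoter windows are from RefSeq GRCm38.p6 and exon lengths from GENCODE vM21.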

Additional observations from a re-analysis of the deposited data

Results flagged for a closer look

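The genotype effect, meaning the log2 ratio of KO to WT, differed between treatments for 5 of the genes by a test of the difference itself, in contrasts added after seeing the data. At 30 min 2 of 10 were called, against 0.0743% of all genes. The effect was higher with Jurkat cells than with OVA by 0.74 for Nfkbiz (SE 0.128, FDR 0.0118) and by 0.60 for Tnfaip3 (SE 0.0922, FDR 0.00319), which were lower in KO with OVA and higher in KO with Jurkat cells. Neither was called in a fit of only the 4 groups, and Nfkbiz also lost its call without KO OVA 30 min replicate 2 or WT OVA 30 min replicate 1. Over all alternatives the FDR was 3.8e-05 to 0.139 for Nfkbiz and 1.12e-06 to 0.0720 for Tnfaip3.

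At 4 h 3 of 10 were called, against 2.53% of all genes. The effect was higher with Jurkat cells than with OVA by 0.52 for Relb (SE 0.0992, FDR 0.00333), 0.46 for Nfkbia (SE 0.0721, FDR 0.000479) and 0.31 for Nfkb2 (SE 0.0816, FDR 0.0392). These genes were lower in KO after OVA and close between genotypes after Jurkat cells. Nfkb2 lost its call in 8 of the 12 fits that left out 1 library, all but those without WT OVA 4 h replicate 3, KO OVA 4 h replicate 1, WT Jurkat 4 h replicate 2 or KO Jurkat 4 h replicate 2 (FDR 0.00407 to 0.128 over all alternatives).

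Between 4 h and 30 min of Jurkat cells the genotype effect changed by -0.54 for Tnfaip3 (SE 0.0894, FDR 0.00058) and by -0.38 for Nfkbiz (SE 0.122, FDR 0.0497), 2 of 10 against 8.83% of all genes. The Nfkbiz call held in 9 of its 20 alternatives (FDR 0.00302 to 0.206). It was lost under total scaling, in a fit of only the 4 groups and in 9 of the 12 fits that left out 1 library, all but those without WT Jurkat 4 h replicate 1 or KO Jurkat 30 min replicate 2 or 3. Without KO Jurkat 30 min replicate 1 its value was -0.18 (FDR 0.206). Tnfaip3 was called in all 20.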

How the results depend on the processing

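No called log2 fold change of a member or named gene changed sign under any alternative run, but library totals turned the balance of the pathway list from 2 higher and 12 lower to 10 and 5 in KO against WT at 4 h of Jurkat cells, and from 30 higher and 14 lower to 22 and 25 for Jurkat cells at 4 h in WT. With no low-count filter 1 member was called in the interaction for OVA at 4 h and 1 in that for Jurkat cells at 30 min, where 0 were called as reported. The stricter filter gave 1 in the interaction for OVA at 4 h. DESeq2 gave 1 there, 2 in the interaction for Jurkat cells at 30 min and 2 in KO against WT untreated. Library totals gave 0 in KO against WT at 4 h of Jurkat cells and 1 in that interaction; a fit of only the groups compared gave 1 in each of these and 2 in KO against WT untreated. The cause was not tested, except that fewer libraries entered the last fit. With library totals the share of higher calls among all genes called at 4 h went from 47.7% to 27.4% for Jurkat cells against OVA, and from 40.3% to 76.8% in the Jurkat interaction.

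Leaving out 1 library at a time gave these ranges of members called. Against untreated, WT cells gave 3 to 4 (OVA, 30 min), 7 to 8 (OVA, 4 h), 4 (Jurkat, 30 min) and 10 (Jurkat, 4 h), and KO cells 3 to 4, 7, 3 to 5 and 10. KO against WT gave 0 to 1 untreated, 1 to 3 and 6 to 7 with OVA at 30 min and 4 h, and 2 to 3 and 0 to 3 with Jurkat cells. The interactions gave 0 and 0 to 1 for OVA and 0 to 2 and 0 for Jurkat cells. Jurkat cells against OVA gave 5 to 6 at 30 min and 10 at 4 h.

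Same-numbered libraries of a genotype did not meet the bar for pairing, a correlation of deviations over 0.1 in every pair: the median was 0.0148 over 60 pairs (-0.0703 to 0.217), with 6 over 0.1, against 2 of 120 pairs with different numbers. This bar is strict, and a weaker shared effect of replicate would miss it, so pairing is not excluded. As a hint from the data of some shared deviation, not from the design, mean correlations with other groups of the same genotype were compared across the 3 replicate numbers. For 18 of 30 libraries the mean was highest for their own number. A replicate block within genotypes gave 1 member called in the interaction for OVA at 4 h and 3 in KO cells given Jurkat cells for 30 min, and a block across genotypes gave 8 in KO against WT at 4 h of OVA. The shallowest library, replicate 3 of KO cells given OVA for 30 min, held 9.73 M counts, so its low counts carry more sampling error.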
